A study of Homo sapiens with 6 samples.

Results

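Fatty acid metabolism was followed in C4-2 cells, a human castration-resistant prostate cancer line derived from LNCaP, through 37 genes named for their part in fatty acid synthesis, storage or oxidation. Of the 37, 36 were among the 26819 genes of the deposited expression table and FABP5 was not analysed here. The Dox group (n = 3) is Tet-O-YAP5SA C4-2 cells given doxycycline for 24 hours at a dose the labels write as 0.2 mg/ml. The Ctrl group (n = 3) is the same Tet-O-YAP5SA C4-2 cells without doxycycline. Both groups therefore carry the transgene, a doxycycline-inducible YAP1, the Hippo pathway coactivator, altered so that the LATS kinases cannot phosphorylate it, and both grew in RPMI-1640 with 10% FBS. No group without the transgene received the drug, so the action of doxycycline itself and that of YAP5SA cannot be told apart. The labels do not say that the replicates were separate cultures, or that the line is 1 clone, so p-values measure only how these libraries spread, and that spread may be technical.

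Cells build fatty acids in the cytosol from acetyl-CoA, which is carboxylated to malonyl-CoA and assembled into palmitate, and then lengthen and desaturate the product. Surplus acyl chains are esterified into triglyceride and kept in lipid droplets, from which lipases release them. Acyl chains reach the mitochondrial matrix as carnitine esters and are shortened there by beta-oxidation, and malonyl-CoA, the product of the first committed step of synthesis, inhibits the carnitine acyltransferase that admits them. Prostate cancer cells are known for strong lipogenesis, which the SREBP transcription factors promote.

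Libraries held 24960742 to 29261886 recovered reads in Dox and 27591910 to 28805047 in Ctrl. YAP1 stood at 263, 277 and 268 TPM in Dox, against 52.7, 57.9 and 59.9 TPM in Ctrl (TPM is a relative abundance, the reads of a gene per unit of its length as a part of the whole library). All 9 markers of prostate luminal cancer cells looked at, among them KLK3 and FOLH1, averaged at least 1 TPM in 1 or both groups, with summed levels of 5525 to 5622 TPM in Dox and 6330 to 6394 TPM in Ctrl. Among markers of other cell types, none of the listed stroma or leukocyte genes averaged 1 TPM, and KRT14 of the basal and VWF of the endothelial list did. The 3 listed endothelial markers summed to 3.97 to 4.65 TPM in Dox and 1.17 to 1.41 TPM in Ctrl, and their part in the results was not tested. The 2 listed adipocyte markers, PLIN1 and CIDEC, summed to 0.0352 to 0.413 TPM in Dox and 0.279 to 0.441 TPM in Ctrl. Values are of bulk RNA, in which fewer cells of a type and less RNA per cell cannot be told apart. A gene was tested when it reached 1 TPM in at least 3 libraries, which 14833 genes did. Each was tested with limma (two-sided) on the log2(TPM + 1) scale, p-values were adjusted by Benjamini-Hochberg over all genes tested with a threshold of 0.05, and "higher" or "lower" below means past that threshold.

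Of the 36 listed members, 32 were tested. The 4 untested ones stayed under 1 TPM, so counts over the 32 are not counts over all members. In Dox 9 members were higher, 12 were lower and 11 did not pass, and in 25 the groups did not overlap. Over all genes tested 53.7% were called, 35.9% as higher and 17.8% as lower, and in 61.9% the groups did not overlap. The lower calls lay in synthesis (8) and triglyceride synthesis (3), with the racemase gene AMACR as the remaining one. The members' median log2 fold change was -0.0031, against 0.10 over all genes tested. These splits move with the scaling between libraries. On the deposited scale 66.8% of all called genes were higher, against 50.1% after median-ratio rescaling, 44.9% after quantile normalization and 41.9% with each library's trend with gene length removed. Median-ratio rescaling gave 6 higher and 16 lower members, quantile normalization 7 higher and 12 lower, and removal of the length trend 6 higher and 17 lower. Quantile normalization shifted the median of all genes by -0.13 and removal of the length trend by -0.14, so small changes are to be read against that median.

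**Figure D1:**
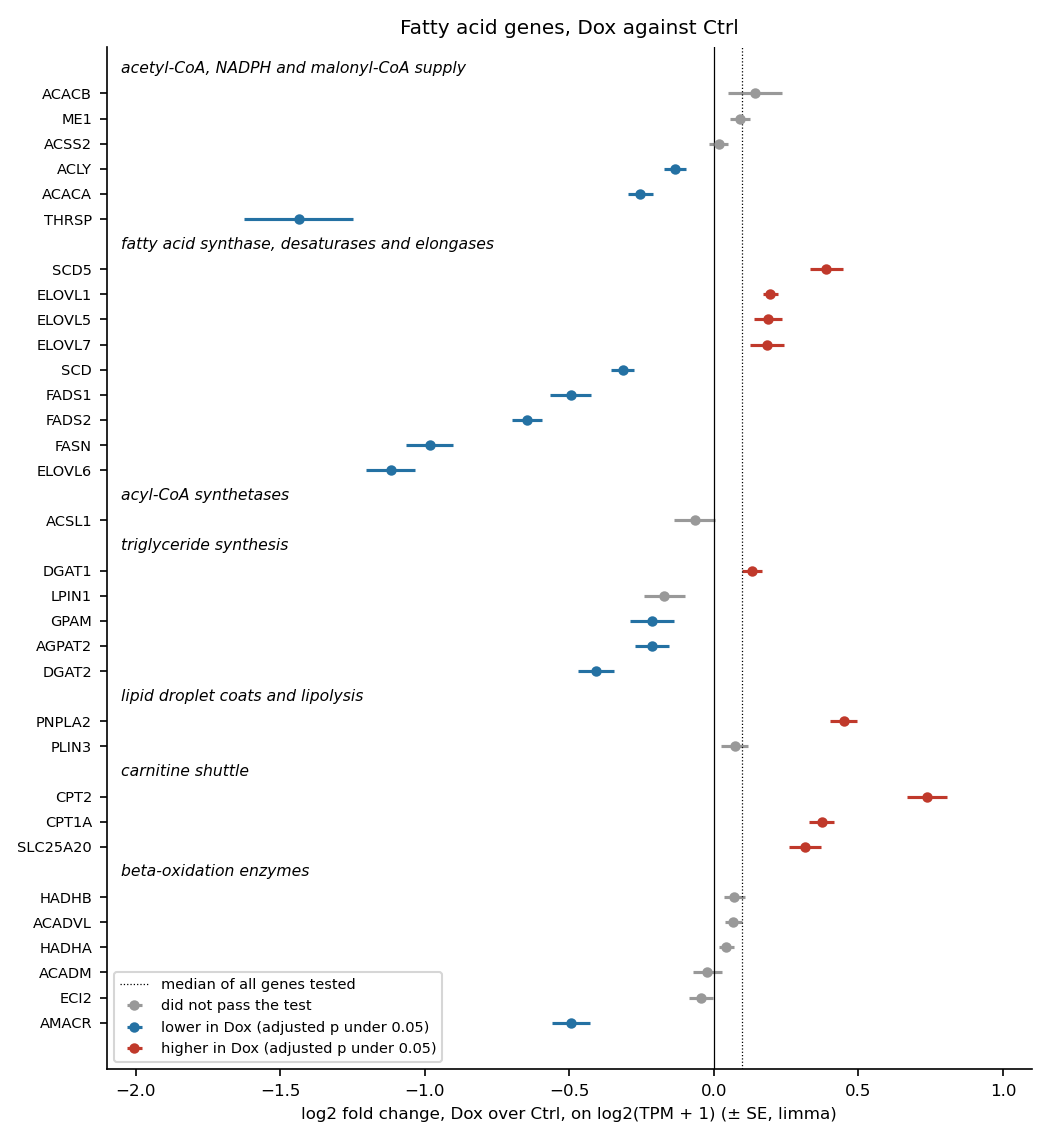
Log2 fold change of each tested member, Dox over Ctrl, on the log2(TPM + 1) scale with its limma standard error (n = 3 a group), grouped by role from synthesis at the top to oxidation at the bottom. THRSP, ELOVL6 and FASN lie farthest to the left, the carnitine shuttle lies to the right, and 5 of the 6 beta-oxidation enzymes lie near the dotted median of all genes (0.10) or near 0.

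The promoters of the members with the largest changes on either side that the RefSeq promoter table holds are shown first, for comparison of their upstream sequence. Each run covers 250 bases before to 50 after the annotated start (RefSeq, GRCh38.p14, read 5′ to 3′ along the gene). Capitals mark a CCAAT box (CCAAT, or ATTGG on the other strand), a GC box of the SP1 type (GGGCGG on either strand), a sterol regulatory element (TCACNCCAC on either strand), an E-box (CACGTG) or a TEAD motif (GGAATG on either strand).
THRSP, chr11:78063611-78063910, plus strand: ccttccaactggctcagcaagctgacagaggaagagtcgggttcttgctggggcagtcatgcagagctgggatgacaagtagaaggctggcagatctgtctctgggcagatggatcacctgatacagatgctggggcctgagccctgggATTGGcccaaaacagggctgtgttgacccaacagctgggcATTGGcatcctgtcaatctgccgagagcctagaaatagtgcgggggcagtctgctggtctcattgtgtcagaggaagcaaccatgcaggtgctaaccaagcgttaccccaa
ELOVL6, chr4:110198566-110198865, minus strand: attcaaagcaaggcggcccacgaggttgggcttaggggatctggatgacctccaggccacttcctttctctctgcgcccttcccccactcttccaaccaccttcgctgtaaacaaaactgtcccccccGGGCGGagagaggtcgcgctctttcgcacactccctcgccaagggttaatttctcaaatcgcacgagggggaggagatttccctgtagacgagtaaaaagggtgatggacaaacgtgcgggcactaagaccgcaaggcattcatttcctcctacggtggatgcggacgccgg
CPT2, chr1:53196574-53196873, plus strand: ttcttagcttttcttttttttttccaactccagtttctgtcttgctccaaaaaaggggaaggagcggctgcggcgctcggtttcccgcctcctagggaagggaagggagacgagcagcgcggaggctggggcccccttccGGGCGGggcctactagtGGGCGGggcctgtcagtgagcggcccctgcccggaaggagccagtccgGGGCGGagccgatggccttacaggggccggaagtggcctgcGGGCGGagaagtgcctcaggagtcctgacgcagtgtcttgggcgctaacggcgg
PNPLA2, chr11:818664-818963, plus strand: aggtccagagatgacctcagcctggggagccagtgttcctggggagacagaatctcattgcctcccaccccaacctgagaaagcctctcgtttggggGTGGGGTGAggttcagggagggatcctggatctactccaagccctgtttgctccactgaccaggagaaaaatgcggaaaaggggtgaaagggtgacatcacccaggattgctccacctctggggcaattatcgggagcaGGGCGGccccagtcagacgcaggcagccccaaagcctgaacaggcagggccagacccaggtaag

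The promoter table held 33 of the 37 members, among them the untested ELOVL2, PLIN2, ACSL5 and CD36. The shares set beside them below are of tested genes only, so the sets are not alike in this. The THRSP run has 2 CCAAT boxes, both on the other strand, and none of the other motifs. The CPT2 run has 4 GC boxes and none of the other motifs. A GC box lay in 24 of the 33 member promoters (72.7%), against 71.2% of the 9137 promoters of tested genes in the table. A CCAAT box lay in 10 of them (30.3%, against 37.3%), in 5 of the 10 lower members and 3 of the 8 higher members with a promoter there. The TEAD motif was in 2 member promoters, those of the untested ACSL5 and CD36, against 10.8% of the promoters of tested genes. The sterol regulatory element was in 1, that of PNPLA2, against 1.17%. The E-box was in 2 (6.06%), those of ELOVL5 and the untested PLIN2, against 10.3%. A match is not a bound site, and these shares were not tested.

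Of the 15 tested synthesis members 8 were lower and 4 higher. FASN, the fatty acid synthase that makes palmitate and the most abundant member in Ctrl, was at 1032, 1280 and 1297 TPM in Dox, against 2336, 2454 and 2313 TPM in Ctrl. Every Dox library lay below every Ctrl library, and Dox replicate 1 was the lowest. The means were 1203 ± 148 TPM in Dox and 2367 ± 75.5 TPM in Ctrl (SD, n = 3 each), 1.97-fold lower, with a log2 fold change of -0.98 ± 0.08 (SE, limma adjusted p = 4.7e-05). FASN made up 24.0%, 26.7% and 27.9% of the summed synthesis TPM in the Dox libraries, against 38.6%, 38.7% and 38.5% in the Ctrl libraries. The whole synthesis sum was 4305, 4798 and 4645 TPM in Dox and 6047, 6336 and 6013 TPM in Ctrl. Without FASN it was 3273, 3518 and 3348 TPM in Dox and 3711, 3882 and 3700 TPM in Ctrl, still without overlap.

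Of the 6 genes that supply acetyl-CoA, NADPH and malonyl-CoA or regulate that supply, 3 were lower and none was higher. THRSP (Spot 14), a protein induced with lipogenesis, had the largest fall of all members by log2 fold change. It was at 1.37, 1.95 and 2.81 TPM in Dox, against 6.84, 8.59 and 6.01 TPM in Ctrl, 3.50-fold lower (log2 fold change -1.44 ± 0.19, limma adjusted p = 0.00045). Its groups did not overlap, but it rested on 12 to 85 reads a library. ACACA, the cytosolic acetyl-CoA carboxylase, was at 137, 145 and 144 TPM in Dox, against 163, 179 and 167 TPM in Ctrl (log2 fold change -0.25 ± 0.04, limma adjusted p = 0.0018). ACLY, which splits citrate to cytosolic acetyl-CoA, was at 758, 838 and 814 TPM in Dox and 878, 892 and 873 TPM in Ctrl, a fall of 0.13 on the log2 scale (limma adjusted p = 0.021). That small difference turned to 0.03 after quantile normalization (adjusted p = 0.62) and did not pass with no filter (0.059), with no variance trend (0.068), or without Ctrl replicate 1 (0.054) or Ctrl replicate 2 (0.062).

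The other supply genes did not pass the test. ACSS2, which makes acetyl-CoA from acetate, was at 93.9, 95.0 and 92.5 TPM in Dox and 92.2, 95.5 and 90.6 TPM in Ctrl, but passed as lower after median-ratio rescaling (log2 fold change -0.093, limma adjusted p = 0.033) and with the length trend removed (-0.14, 0.0042). ME1, the malic enzyme that yields NADPH, was at 130 ± 3.62 TPM in Dox and 122 ± 2.74 TPM in Ctrl (limma adjusted p = 0.062). ACACB, the carboxylase of the outer mitochondrial membrane, was at 2.42 ± 0.0937 TPM in Dox and 2.10 ± 0.142 TPM in Ctrl, so ACACA held 98.3% of the summed carboxylase TPM in Dox and 98.8% in Ctrl.

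All 9 tested genes of the synthase, desaturase and elongase group passed, 5 as lower and 4 as higher. Of the desaturases, 3 were lower. FADS2, the first desaturase of the polyunsaturated route, was at 301, 340 and 321 TPM in Dox, against 498, 526 and 480 TPM in Ctrl, 1.56-fold lower (log2 fold change -0.64 ± 0.05, limma adjusted p = 3.7e-05). FADS1, its neighbour on the chromosome and the next desaturase of that route, was at 41.2, 42.0 and 36.6 TPM in Dox and 56.1, 61.3 and 52.8 TPM in Ctrl (1.42-fold lower). SCD, which puts the double bond into stearate and palmitate, was at 815, 876 and 838 TPM in Dox and 1036, 1095 and 1015 TPM in Ctrl (1.24-fold lower, limma adjusted p = 0.00038). For each of these 3 genes the groups did not overlap. Its paralog SCD5 went the other way, at 14.6, 16.1 and 16.3 TPM in Dox and 11.7, 11.5 and 11.9 TPM in Ctrl (1.34-fold higher), and SCD still held 98.2% of the summed TPM of the pair in Dox and 98.9% in Ctrl.

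The elongases were divided. ELOVL6, which lengthens palmitate to stearate, was at 3.79, 3.16 and 3.21 TPM in Dox, against 8.01, 8.81 and 8.69 TPM in Ctrl, 2.51-fold lower (log2 fold change -1.12 ± 0.08, limma adjusted p = 2.6e-05). ELOVL1, which serves saturated very long chains, was at 309, 313 and 307 TPM in Dox and 269, 272 and 270 TPM in Ctrl (1.15-fold higher, limma adjusted p = 0.00048). ELOVL5, which lengthens polyunsaturated chains and is the most abundant elongase, was at 607 ± 36.0 TPM in Dox and 533 ± 20.3 TPM in Ctrl (1.14-fold higher). ELOVL7 was 1.14-fold higher, at 66.2 ± 4.17 TPM in Dox and 58.1 ± 3.11 TPM in Ctrl, but its groups overlapped. The calls of ELOVL5 and ELOVL7 were lost after median-ratio rescaling (adjusted p = 0.17 and 0.21) and with the length trend removed (0.27 and 0.50), and that of ELOVL7 also after quantile normalization (0.34), with no filter (0.066), with no variance trend (0.058) and without Ctrl replicate 1 (0.088), Ctrl replicate 3 (0.098), Dox replicate 1 (0.081) or Dox replicate 2 (0.10). ELOVL6 ran at 0.638, 0.488 and 0.554 TPM per 100 TPM of ELOVL5 in the Dox libraries and 1.57, 1.62 and 1.59 in the Ctrl libraries. ELOVL2 stayed at 0.540 to 0.816 TPM in Dox and 0.589 to 0.781 TPM in Ctrl and was not tested.

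**Figure D2:**
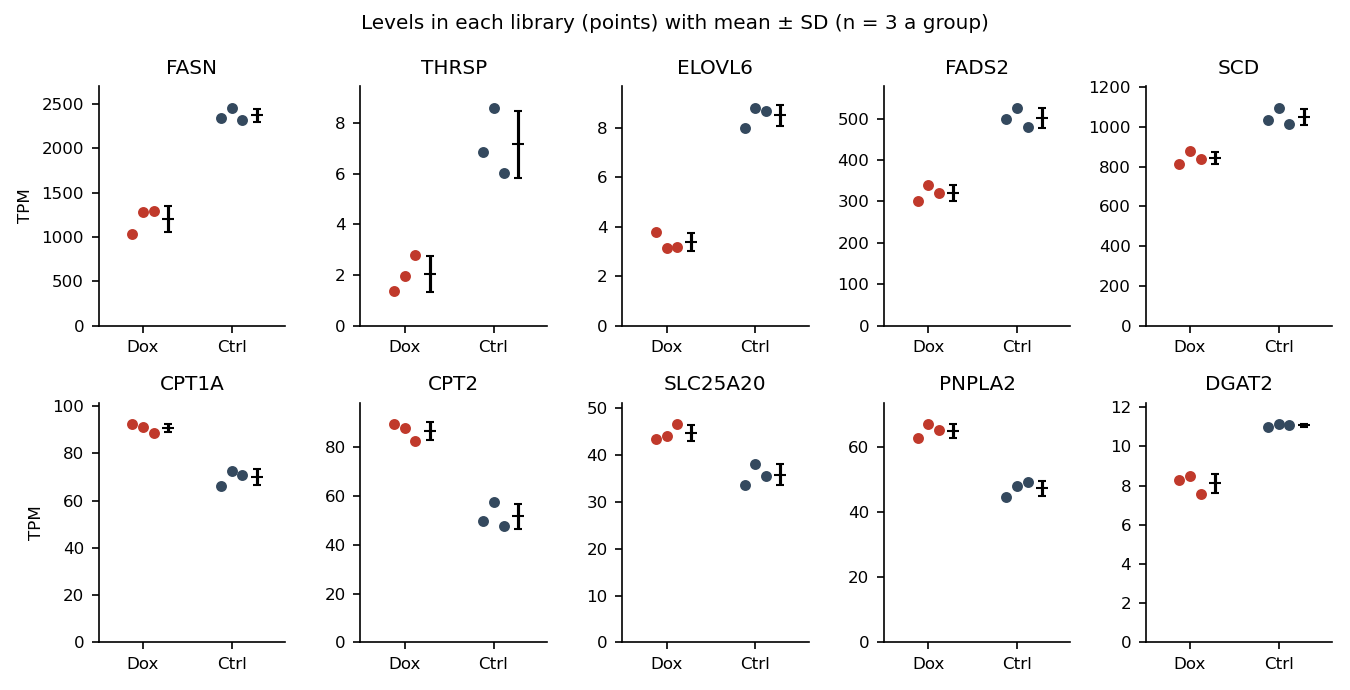
TPM of 10 members in each library (points, Dox left and Ctrl right) with the mean and SD of each group (n = 3), every axis starting at 0. FASN, THRSP, ELOVL6, FADS2, SCD and DGAT2 lie lower in all 3 Dox libraries, and CPT1A, CPT2, SLC25A20 and PNPLA2 lie higher in all 3.

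The acyl-CoA synthetases, which activate fatty acids for every later route, gave no call on the deposited scale. ACSL1 was at 153, 154 and 131 TPM in Dox and 147, 163 and 148 TPM in Ctrl, with overlap (limma adjusted p = 0.46). It passed as lower after median-ratio rescaling (log2 fold change -0.18, limma adjusted p = 0.040) and with the length trend removed (-0.25, 0.0081). ACSL5 rested on 3 to 16 reads a library and was not tested.

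In triglyceride synthesis 3 of 5 genes were lower and 1 was higher. DGAT2, an acyltransferase of the last step, was at 8.26, 8.48 and 7.58 TPM in Dox, against 10.99, 11.13 and 11.09 TPM in Ctrl, 1.37-fold lower (log2 fold change -0.41 ± 0.06, limma adjusted p = 0.00099). DGAT1, the other enzyme of that step and the more abundant, was at 52.3, 53.3 and 51.0 TPM in Dox and 47.6, 47.3 and 47.8 TPM in Ctrl (log2 fold change 0.13 ± 0.04). The rise of DGAT1 is close to the median of all genes and did not pass after median-ratio rescaling (adjusted p = 0.58), after quantile normalization (0.90), on recovered reads (0.14), with the length trend removed (0.27), or without Dox replicate 2 (0.062) or Ctrl replicate 3 (0.050). An overlapping gene on the same strand, AC233992.1, covers 10.8% of the exon bases of DGAT1 and was at 3.06 TPM in Dox and 3.65 TPM in Ctrl. AGPAT2, the acyltransferase of the second step, was at 41.6, 47.3 and 48.3 TPM in Dox and 52.7, 52.9 and 53.9 TPM in Ctrl (1.16-fold lower, limma adjusted p = 0.016, and 0.052 without Ctrl replicate 3). GPAM, which starts the route at the mitochondrion, was 1.18-fold lower, at 7.79 ± 0.421 TPM in Dox and 9.20 ± 0.728 TPM in Ctrl (limma adjusted p = 0.044). The call of GPAM was lost with no filter (0.087) and without Dox replicate 2 (0.11), Dox replicate 3 (0.12), Ctrl replicate 2 (0.12) or Ctrl replicate 3 (0.11). LPIN1, the phosphatidate phosphatase, was at 16.5 ± 0.618 TPM in Dox and 18.7 ± 1.67 TPM in Ctrl and did not pass (limma adjusted p = 0.074), though it passed as lower after median-ratio rescaling (0.0043), after quantile normalization (0.0015), on recovered reads (0.0013), with the length trend removed (0.00016) and without Ctrl replicate 1 (0.023).

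PNPLA2, the lipase ATGL that removes the first acyl chain from stored triglyceride, was higher. It was at 62.9, 67.1 and 65.2 TPM in Dox, against 44.9, 48.2 and 49.3 TPM in Ctrl, 1.37-fold higher (log2 fold change 0.45 ± 0.05, limma adjusted p = 0.00015), with no overlap. PNPLA2 ran at 761, 791 and 860 TPM per 100 TPM of DGAT2 in the Dox libraries and 408, 433 and 444 in the Ctrl libraries. The droplet coat gene PLIN3, the most abundant storage member, was at 113, 118 and 116 TPM in Dox and 106, 117 and 107 TPM in Ctrl and did not pass (limma adjusted p = 0.22), though it passed as higher without Ctrl replicate 2 (0.030). PLIN2, the droplet coat found in most cell types, was almost without reads, with 8, 3 and 8 in the Dox libraries and 9, 9 and 12 in the Ctrl libraries (0.0711 to 0.210 TPM in Dox and 0.197 to 0.277 TPM in Ctrl). Its nearest protein-coding neighbours in the table were well expressed, HAUS6 at 22.3 TPM in Dox and 20.6 TPM in Ctrl and DENND4C at 35.9 TPM in Dox and 36.99 TPM in Ctrl. Why PLIN2 had so few reads in both groups, including how its reads were counted, was not tested.

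All 3 genes of the carnitine shuttle, which carries acyl chains into the mitochondrion, were higher. CPT2, the acyltransferase on the inner side that hands the chain back to coenzyme A, was the member with the largest rise. It was at 89.2, 87.7 and 82.2 TPM in Dox, against 49.7, 57.3 and 47.7 TPM in Ctrl, 1.68-fold higher (log2 fold change 0.74 ± 0.07, limma adjusted p = 8.5e-05). CPT1A, the malonyl-CoA-sensitive acyltransferase on the outer membrane, was at 92.3, 91.3 and 88.7 TPM in Dox and 66.3, 72.6 and 71.0 TPM in Ctrl, 1.30-fold higher (limma adjusted p = 0.00024). SLC25A20, the carrier that exchanges acylcarnitine for carnitine, was at 43.4, 44.2 and 46.6 TPM in Dox and 33.7, 38.2 and 35.5 TPM in Ctrl (log2 fold change 0.31 ± 0.06, limma adjusted p = 0.0020). None of the 3 genes overlapped between groups, and each kept its call under all 15 alternative settings.

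Of the 6 members grouped as beta-oxidation enzymes, 5 did not pass on the deposited scale. The 1 that was lower was AMACR, described below, which is not a step that follows the shuttle. HADHA, the alpha subunit of the mitochondrial trifunctional protein and the most abundant oxidation member, was at 314, 312 and 318 TPM in Dox and 305, 307 and 304 TPM in Ctrl (log2 fold change 0.04 ± 0.03, limma adjusted p = 0.19). Its beta subunit HADHB was at 131 ± 4.38 TPM in Dox and 125 ± 1.99 TPM in Ctrl (0.13). ACADVL, the very long chain acyl-CoA dehydrogenase, was at 289 ± 6.01 TPM in Dox and 276 ± 4.26 TPM in Ctrl (0.088). The medium chain dehydrogenase ACADM was at 86.2 ± 4.89 TPM in Dox and 87.5 ± 3.45 TPM in Ctrl, and the enoyl-CoA isomerase ECI2 at 174 ± 8.45 TPM in Dox and 180 ± 5.02 TPM in Ctrl. ECI2 passed as lower after median-ratio rescaling (limma adjusted p = 0.020) and with the length trend removed (0.0083), and ACADM with the length trend removed (0.025). The groups of HADHA, HADHB and ACADVL did not overlap, as was the case for 61.9% of all genes tested.

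AMACR, the racemase that prepares branched-chain acyl-CoA for oxidation and a tissue marker of prostate cancer, was the oxidation member that fell. It was at 12.8, 12.6 and 13.0 TPM in Dox, against 16.8, 19.7 and 18.9 TPM in Ctrl, 1.44-fold lower (log2 fold change -0.49 ± 0.07, limma adjusted p = 0.00051). The readthrough gene C1QTNF3-AMACR covers 55.0% of its exon bases on the same strand in GENCODE 29 and was at 17.1 TPM in Dox and 24.9 TPM in Ctrl, so how reads were split between the pair is uncertain. For CPT2, ECI2, PLIN3 and PNPLA2 an opposite-strand gene covers 10.4% to 27.1% of exon bases, and whether the counting used strand is not stated in the sources. Where those genes had values (those over CPT2, ECI2 and PNPLA2), their means were under 1 TPM, apart from the one over PNPLA2 in Ctrl (0.929 TPM in Dox and 1.75 TPM in Ctrl). Of the uptake genes, CD36, a fatty acid translocase, had 0 to 3 reads in the Dox libraries and 0 to 1 in the Ctrl libraries.

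Ratios of members within a library do not change when a library is rescaled by 1 factor. They were chosen with the values known and are given as a description. CPT1A ran at 8.94, 7.13 and 6.84 TPM per 100 TPM of FASN in the Dox libraries, against 2.84, 2.96 and 3.07 in the Ctrl libraries. CPT2 ran at 8.65, 6.85 and 6.34 TPM per 100 TPM of FASN in Dox and 2.13, 2.33 and 2.06 in Ctrl. HADHA, itself uncalled, ran at 30.4, 24.4 and 24.5 in Dox and 13.1, 12.5 and 13.1 in Ctrl on the same basis. CPT1A per 100 TPM of ACACA was 67.4, 63.0 and 61.7 in Dox and 40.7, 40.6 and 42.5 in Ctrl. None of these ratios overlapped between groups, and with 3 libraries against 3 an exact two-sided permutation test cannot go below p = 0.10, the value each of them gave. In sum, the oxidation members came to 1246, 1224 and 1223 TPM in Dox and 1141, 1174 and 1134 TPM in Ctrl, 1.07-fold higher by means. Unlike the ratios, such a sum moves with the scaling between libraries. After median-ratio rescaling its members HADHA, HADHB and ACADVL turned sign (log2 fold change -0.067, -0.039 and -0.042). The storage members came to 303, 319 and 312 TPM in Dox and 288, 307 and 297 TPM in Ctrl, with overlap.

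**Figure D3:**
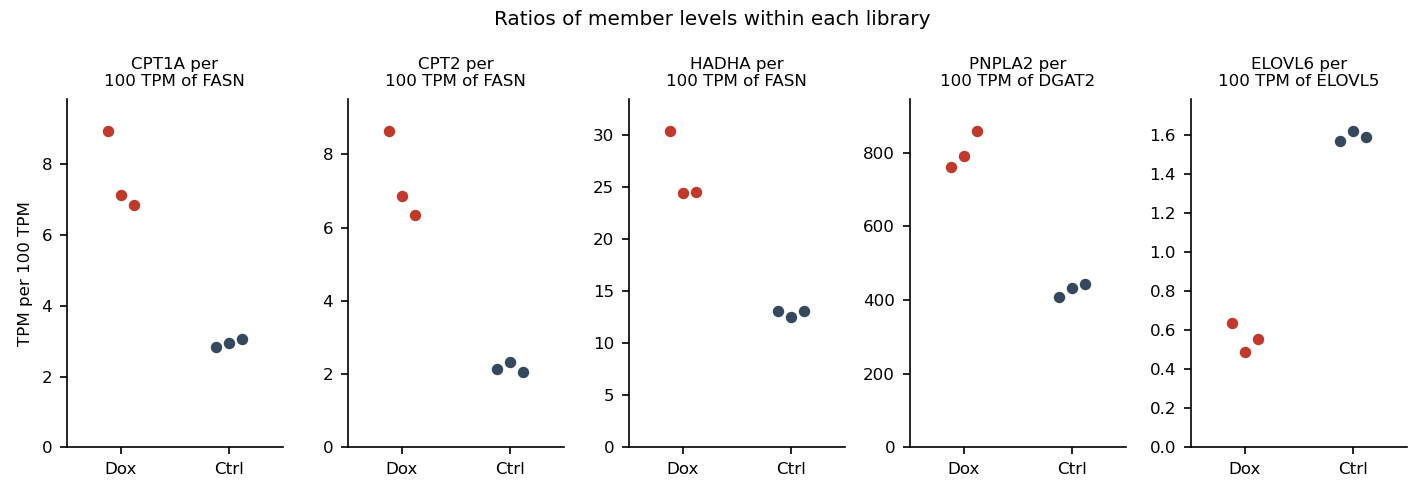
Ratio of the levels of a pair of members in each library, in TPM per 100 TPM, with Dox left and Ctrl right and every axis starting at 0. CPT1A, CPT2 and HADHA per FASN and PNPLA2 per DGAT2 lie higher in all 3 Dox libraries, and ELOVL6 per ELOVL5 lies lower in all 3.

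Only 5 of the 32 tested members were called with mean TPM at least 1.5-fold apart, 4 lower (THRSP, ELOVL6, FASN and FADS2) and 1 higher (CPT2). Over all genes tested 4.61% were called and at least that much lower and 13.2% called and at least that much higher. The calls that were lost under at least 1 other setting, those of ACLY, ELOVL5, ELOVL7, GPAM, AGPAT2 and DGAT1, are among the smaller differences, at 1.18-fold or less. The other 15 called members kept call and direction under every alternative that tested them, but 7 of them changed in size by over 1.5 times under at least 1 scaling. With the length trend removed the log2 fold change was -0.55 for ACACA, -0.47 for SCD, 0.25 for SCD5, 0.11 for ELOVL1, -0.61 for DGAT2 and 0.17 for CPT1A. After quantile normalization it was -0.13 for SCD, 0.22 for SCD5 and 0.19 for SLC25A20, and after median-ratio rescaling it was 0.085 for ELOVL1 and 0.21 for SLC25A20.

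The wider set of 136 genes of the same routes, none of them a member, had 105 tested genes, of which 42 were higher and 29 lower, against 35.9% and 17.8% of all genes tested. Among 17 tested regulators of lipogenesis 9 were higher and 5 lower, a split that turned to 4 higher and 6 lower after quantile normalization and 4 higher and 7 lower with the length trend removed. SREBF1, which encodes the SREBP-1 transcription factor of the lipogenic genes, was at 106, 111 and 115 TPM in Dox, against 192, 202 and 194 TPM in Ctrl, 1.77-fold lower (log2 fold change -0.82 ± 0.04, limma adjusted p = 2.7e-06). SREBF2, whose product serves mainly sterol synthesis, was at 113 ± 4.35 TPM in Dox and 102 ± 4.61 TPM in Ctrl (log2 fold change 0.14, limma adjusted p = 0.028). SREBF2 is outside the naming rule, and its small rise is close to the median of all genes tested (0.10). Its own values under the other scalings are not given here. INSIG1, which retains SREBP in the endoplasmic reticulum and is itself an SREBP target, was 2.32-fold lower and MID1IP1, the relative of THRSP, 1.29-fold lower. PRKAA1, a catalytic subunit of AMP-activated kinase, which phosphorylates and inhibits the carboxylases, was at 115, 117 and 107 TPM in Dox and 58.4, 60.3 and 61.7 TPM in Ctrl (1.88-fold higher). PPARG was 1.72-fold higher, and FLCN was higher at 8.31 TPM in Dox and 5.53 TPM in Ctrl.

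Of 21 tested other synthesis enzymes 9 were higher and 5 lower (66.7% called, against 53.7% of all genes tested). That split turned under every other scaling, to 5 higher and 10 lower with median-ratio rescaling, 6 and 9 with quantile normalization, 7 and 9 with voom on recovered reads and 5 and 11 with the length trend removed. The acyl-CoA synthetases of this list divided, with ACSL3 at 373 ± 24.0 TPM in Dox and 266 ± 4.23 TPM in Ctrl and ACSL4 at 4.02 ± 0.313 TPM in Dox and 7.20 ± 0.375 TPM in Ctrl. FADS3 was 1.76-fold and the mitochondrial reductase subunit CBR4 1.27-fold higher, and PTPLAD1 (HACD3) was 1.12-fold lower. OLAH, a thioesterase that releases medium chains from the fatty acid synthase, is outside the naming rule because of its low level and was singled out after its values were seen. It had 52, 54 and 52 reads in the Dox libraries and 0, 1 and 1 in the Ctrl libraries (2.73 ± 0.220 TPM in Dox and 0.0333 ± 0.0289 TPM in Ctrl, limma adjusted p = 1.0e-05).

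Of 16 tested other storage genes 5 were higher and 3 lower (50% called, near the 53.7% of all genes tested). The split turned to 4 higher and 6 lower with median-ratio rescaling, 4 and 7 with quantile normalization, 5 and 6 with voom and 4 and 7 with the length trend removed. MGLL, the lipase of the last step of triglyceride breakdown, was at 22.2, 24.2 and 23.3 TPM in Dox and 13.1, 14.3 and 13.9 TPM in Ctrl (1.69-fold higher). C2orf43 (LDAH), a droplet-associated hydrolase, was 1.69-fold higher and SOAT1, which esterifies cholesterol, 1.62-fold higher. HILPDA, a droplet protein that inhibits ATGL, was at 605, 532 and 592 TPM in Dox and 873, 792 and 839 TPM in Ctrl (1.45-fold lower), and AGPAT5 and CIDEB were 1.35-fold and 1.48-fold lower.

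Of 37 tested other oxidation genes 17 were higher and 8 lower (67.6% called, against 53.7% of all genes tested). That split turned to 10 higher and 11 lower with quantile normalization and 9 higher and 11 lower with the length trend removed. SLC22A5, the plasma membrane carnitine importer, was at 9.42, 9.10 and 8.33 TPM in Dox, against 2.42, 2.88 and 2.70 TPM in Ctrl, 3.35-fold higher (log2 fold change 1.44 ± 0.08, limma adjusted p = 6.1e-06). ACAA1, the peroxisomal thiolase, was at 80.1, 78.1 and 76.5 TPM in Dox and 38.6, 41.3 and 38.8 TPM in Ctrl (1.98-fold higher). Other peroxisomal genes, named here after their values were seen, were also higher, with CROT at 1.58-fold, ABCD3 at 1.43-fold and SCP2 at 1.31-fold. Mitochondrial genes of this list went both ways on the deposited scale, and these too were named after their values were seen. ACAA2 was 1.38-fold and ETFA 1.24-fold higher, while ECHS1 was 1.15-fold and ETFB 1.29-fold lower. ACADS, HADH and ECI1 did not pass. CRAT, the carnitine acetyltransferase, was 1.30-fold lower, and so were the transcription factors ESRRA (1.48-fold) and PPARD (1.32-fold).

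Of 14 tested other uptake and binding genes 2 were higher and 8 lower (71.4% called, against 53.7% of all genes tested). LPL, the lipoprotein lipase, was at 77.9, 78.7 and 83.6 TPM in Dox, against 141, 148 and 151 TPM in Ctrl (1.83-fold lower, limma adjusted p = 2.7e-06). SLC27A2, a very long chain acyl-CoA synthetase and transporter, was at 20.2, 19.9 and 17.8 TPM in Dox and 40.4, 45.0 and 41.5 TPM in Ctrl (2.19-fold lower), and SLC27A5 was 1.42-fold lower. The rise of GOT2 (204 TPM in Dox and 186 TPM in Ctrl) did not pass after median-ratio rescaling or with quantile normalization, where no gene of this list was higher.

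**Figure D4:**
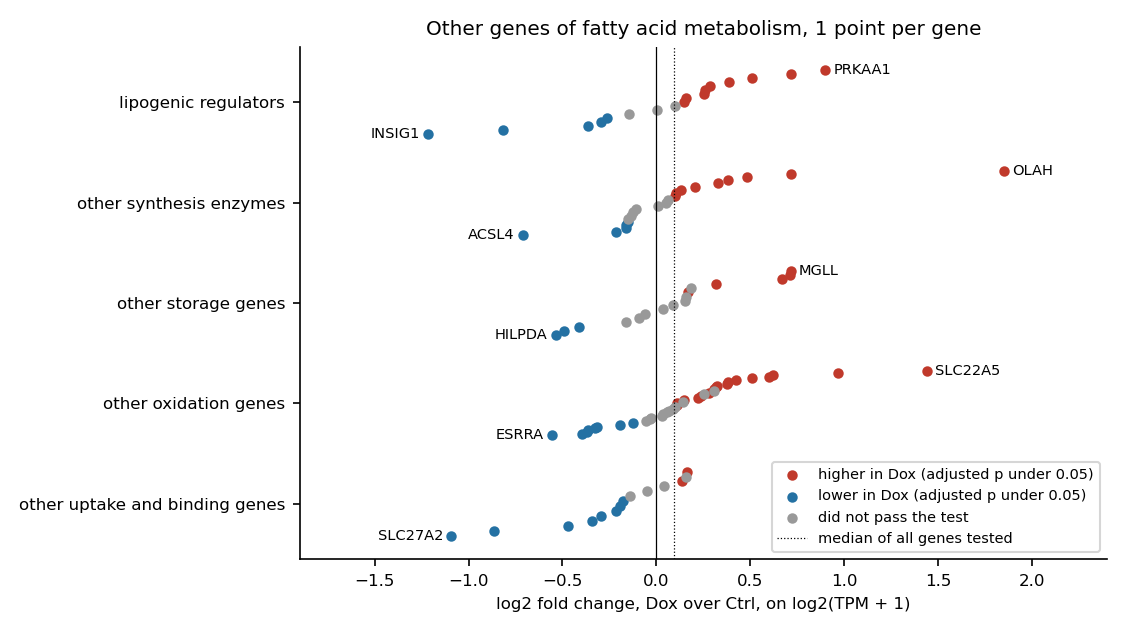
Log2 fold change of the 105 tested genes of the 5 wider lists, Dox over Ctrl on the log2(TPM + 1) scale, 1 point per gene, with the lowest and highest gene of each list named where it lies more than 0.5 from 0. INSIG1 and SLC27A2 lie farthest to the left, and OLAH and SLC22A5 farthest to the right.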

How the data were processed

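Stranded mRNA libraries (TruSeq, per the labels' protocols) of 6 samples were grouped by title. Per the submitters' processing notes, FastQC 0.11.2, STAR 2.5.3a, featureCounts and edgeR were used with hg19; the sources used here give no annotation release and no strand setting. The deposited values are TPM made by the authors, each library summing to the same total, so that a value is a part of its library. Symbols are the table's, with the first row taken where a symbol repeats. limma 3.58.1 in R 4.3.3 (lmFit, eBayes with a mean-variance trend) was run on log2(TPM + 1) for genes of at least 1 TPM in at least 3 libraries; a fold change on this scale understates that of low genes, and folds without "log2" are ratios of mean TPM. Whole reads were recovered from TPM, using GENCODE 29 exon lengths or else the smallest whole length that fits, for 100% of 14833 tested genes (tolerance 0.01 reads, 9115 with the GENCODE 29 length); intervals and read numbers cover counting error only. Within groups, each pair of libraries had a chi-square per gene of 2.38 to 4.50, above sampling noise, and none were merged. The fit was tested on simulated data. Figures were drawn with matplotlib 3.10.9.

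Members and lists were chosen with earlier results of these data known. Full values follow a rule (called members at least 1.5-fold apart, the most abundant of each arm, and up to 3 called genes per wider list and direction reaching 5 TPM without overlap); values of further members were added after they were seen. The 15 alternatives were another pseudocount (0.1), median-ratio rescaling, quantile normalization, no filter, a stricter filter (a mean of at least 5 TPM), no variance trend, a replicate block, leaving out each library, limma voom on recovered reads and, added after the data were seen, removal of the length trend (loess, span 0.3). FABP5 and some genes of the wider lists are not reported here.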

Additional observations from a re-analysis of the deposited data

How the results depend on the processing

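Without a replicate block 9 members were higher and 12 lower, and with the replicate block the counts were the same; the call of GPAM was lost (adjusted p = 0.075) and LPIN1 passed as lower (0.047). Same-numbered libraries of the groups did not deviate together (correlations of -0.00854, 0.0633 and 0.00346), so the samples share only a number.

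Counts that moved by more than 1.5 times were as follows. Over all genes, 3536 were higher and 4348 lower after quantile normalization, and 3394 and 4701 with the length trend removed, against 5319 and 2640. Median-ratio rescaling gave 2 higher synthesis members, 1 higher storage and 2 lower oxidation members. Removal of the length trend gave 2, 1 and 3. A count of 1 higher storage member also came from quantile normalization and from voom. In the wider lists, higher regulators were 4 after quantile normalization and 4 without the length trend. Higher other synthesis enzymes were 5 after median-ratio rescaling and 5 without the length trend, and lower ones were 10 after median-ratio rescaling, 9 after quantile normalization, 9 with voom and 11 without the length trend. Lower other storage genes were 6, 7, 6 and 7 under these same settings. Higher other oxidation genes were 11 after median-ratio rescaling, 10 after quantile normalization and 9 without the length trend. Other uptake genes had 1 higher and 5 lower with no filter, and 0 higher after median-ratio rescaling, after quantile normalization, with no variance trend and without the length trend.

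Leaving out 1 library gave 1 to 3 higher and 1 to 4 lower storage members (both 1 without Ctrl replicate 3), 5 to 8 higher other synthesis enzymes, and 0 to 2 higher and 5 to 7 lower other uptake genes. The other synthesis count was 5 without Ctrl replicate 3. For uptake, 0 were higher without Dox replicate 2 or Ctrl replicate 3, 1 without Dox replicate 3 or Ctrl replicate 1, and 5 were lower without Ctrl replicate 1. Some log2 fold changes of members turned sign. After median-ratio rescaling they were ACSS2 -0.093, ME1 -0.020, PLIN3 -0.038, ACADVL -0.042, HADHA -0.067 and HADHB -0.039. After quantile normalization they were ACLY 0.034, ACSS2 -0.074, ME1 -0.0011, ACACB -0.012, PLIN3 -0.026 and HADHB -0.020. With voom it was ACSS2, at -0.025. Without the length trend they were ACSS2 -0.14, ME1 -0.021, ACACB -0.15, PLIN3 -0.018, ACADVL -0.082, HADHA -0.081 and HADHB -0.056. Without 1 library ACSS2 ranged from -0.00034 to 0.037, ACSL1 from -0.11 to 0.0094 and ACADM from -0.058 to 0.022. The cause of these shifts was not tested. Members under 1 TPM were not tested, so no change in them was looked for.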
